A study of Mus musculus with 6 samples.

Results

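The growth hormone, IGF1 and STAT5 axis was described in the liver by 10 genes, each taken as the row of the deposited gene table that carries its symbol, so that 10 of 45777 listed genes were followed. They were the receptor gene Ghr, the signal transducers Stat5a and Stat5b, the feedback inhibitors Cish and Socs2, the secreted products Igf1, Igfals and Igfbp2, and the urinary protein genes Mup3 and Mup20. RNA-seq of whole liver was available for 6 male C57BL/6 mice fed the high-fat diet (HFD), all of batch 1 in the labels. The 3 littermates (LT) carried Fpn fl/fl without Cre. The 3 mice labelled Fpn-LKO carried Fpn flox/flox with Alb-Cre, in which the albumin promoter drives Cre in hepatocytes and ferroportin, the iron exporter encoded by Slc40a1, is to be deleted from those cells only. Both groups therefore shared the floxed allele, of 129S origin and backcrossed to C57BL/6J by the study's methods, and the diet, and neither the age nor the feeding time of these 6 mice is stated in the labels. The comparison asked how the axis differed in the liver when hepatocytes lack ferroportin on the HFD.

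Growth hormone is released from the pituitary and binds its receptor on hepatocytes, which activates the kinase JAK2 and, through it, the transcription factors STAT5A and STAT5B. STAT5 dimers bind gamma-activated sites (GAS) in DNA and drive Igf1, the gene of the hormone that carries much of the growth signal in blood, together with Igfals, and they also drive Cish and Socs2, whose proteins dampen the receptor's signal. In rodents growth hormone reaches the liver in pulses in males and more continuously in females. Many liver genes, including most genes of the major urinary protein (Mup) family, differ between the sexes for that reason, so that they serve as a readout of the hormone's pattern.

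Depth was even across the libraries, with total counts from 43086184 to 47778683, and all 10 genes had reads in every library. Levels were expressed as CPM, the reads of a gene scaled to library size. For Slc40a1, LT replicates 1 to 3 gave 154, 180 and 126 CPM, against 143, 143 and 176 CPM for those labelled Fpn-LKO. In whole liver the label was thus not borne out by a lower level of the targeted transcript. The counts do not show which exons or which cells the reads came from, and every direction below rests on the labels. The paper reports the loss of ferroportin from Fpn-LKO mice in primary hepatocytes and by immunostaining, measures that differ from these counts. The Y-linked genes Ddx3y, Eif2s3y, Kdm5d and Uty each had at least 957 reads in every library, whereas Xist had at most 30 reads, as the label male requires. The 10 hepatocyte markers, among them albumin, summed to 75481 to 90565 CPM in LT and 78509 to 87003 CPM in Fpn-LKO.

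No member of the axis passed the threshold between the genotypes. With edgeR's quasi-likelihood test over 17274 genes and Benjamini-Hochberg adjustment, 0 of the 10 members had an adjusted p-value under 0.05, beside 0.0232% of all genes tested, and the smallest adjusted p-value of a member was 0.982. At an unadjusted p-value under 0.05 the count was also 0 of 10, beside 4.8% of all genes, and it was 0 of 10 for groups that do not overlap, beside 10.6% of all genes. DESeq2, exactTest and limma likewise called 0 of the 10 members. The estimates were positive for 6 members and negative for 4, with a median log2 fold change (Fpn-LKO over LT) of 0.028 beside −0.0040 over all genes tested. These intervals do not show that the genotypes were alike, since for Socs2 and Mup20 they leave room for differences of more than 1 log2 unit in either direction.

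**Figure D1:**
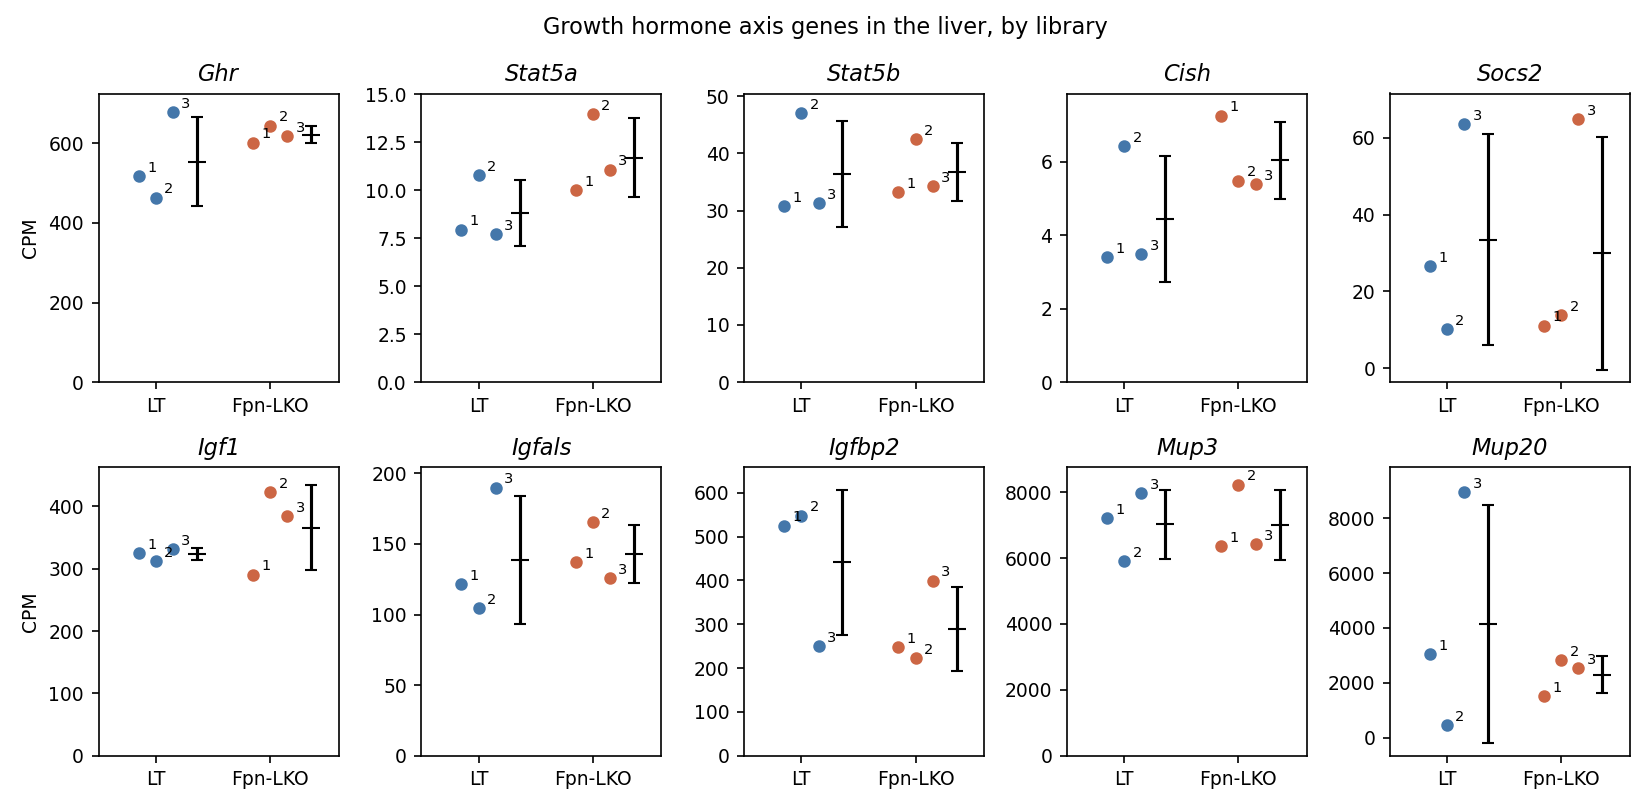
CPM (y axis, linear) of the 10 axis genes in LT (blue) and Fpn-LKO (orange) livers. Each point is 1 library and carries its replicate number, and the black bar gives the mean ± SD of the 3 libraries. The groups overlap for every gene, and the widest spreads are those of Socs2 and Mup20, where LT replicate 3 reached 63.6 and 8938 CPM.

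The receptor gene Ghr (NCBI gene 14600) lies on chromosome 15 of GRCm38.p6 from 3317755 to 3583352, on the minus strand, and encodes both the membrane receptor and, in the mouse by alternative splicing, the circulating binding protein. It was measured at 518, 464 and 679 CPM in LT replicates 1 to 3 and at 602, 645 and 618 CPM in Fpn-LKO replicates 1 to 3. The 3 Fpn-LKO libraries lay inside the LT range. The log2 fold change was 0.17 (SE 0.17, 95% interval −0.23 to 0.56, adjusted p = 0.991), on means of 553 ± 112 and 621 ± 21.7 CPM (SD, n = 3 each). This fold change was 0.060 on the log2 scale without LT replicate 2 and 0.34 without LT replicate 3.

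The transducer genes Stat5a (NCBI gene 20850, chromosome 11, 100859351 to 100885169, plus strand) and Stat5b (NCBI gene 20851, chromosome 11, 100780731 to 100859004, minus strand) lie head to head with 346 bases between them, and their proteins are closely related. Stat5b is the form that carries most of the male pattern in liver. Stat5a was measured at 7.95, 10.8 and 7.73 CPM in LT and at 10, 14.0 and 11.1 CPM in Fpn-LKO. Its Fpn-LKO values were mostly the higher ones, but LT replicate 2 exceeded Fpn-LKO replicate 1, and the log2 fold change of 0.40 (SE 0.20, 95% interval −0.055 to 0.86) did not pass the test (adjusted p = 0.982) and was 0.25 without Fpn-LKO replicate 2. Stat5b was measured at 30.8, 47.1 and 31.3 CPM in LT and at 33.3, 42.6 and 34.3 CPM in Fpn-LKO, so that replicate 2 was the highest in each group and the 3 Fpn-LKO values lay inside the LT range. Its log2 fold change was 0.014 (SE 0.19, 95% interval −0.44 to 0.47, adjusted p = 0.995).

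Promoter sequences were searched for the GAS core TTCNNNGAA, a motif that reads the same on both strands, in RefSeq windows of GRCm38.p6 that run from 250 bases before to 50 bases after a start site. Windows were found for 8 of the 10 members, 14 windows in all, and 3 of them, from Cish and Igfals, held the motif, while 2726 of all 32851 windows did (8.30%). At least 2 matches were present in 0.457% of all windows, among them the window of Cish. The 3 stretches are shown on the plus strand because they are the only matches of the motif among the members. Capitals mark the motif.
Cish, chr9:107296654-107296683: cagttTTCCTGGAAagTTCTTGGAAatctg
Igfals, chr17:24877598-24877627: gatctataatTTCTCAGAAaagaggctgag
Igfals, chr17:24878163-24878192: ctgccaggtgTTCCTAGAAgaggccctggg
In Cish the first match lies at the annotated start site, and in Igfals the matches begin 236 and 58 bases before 2 alternative start sites. A match of letters is not evidence of binding, and these windows do not hold distal elements.

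Cish (NCBI gene 12700, chromosome 9, 107296659 to 107302784, plus strand), the feedback inhibitor that competes at the receptor, was measured at 3.41, 6.42 and 3.48 CPM in LT and at 7.25, 5.48 and 5.39 CPM in Fpn-LKO. Both LT replicate 1 and LT replicate 3 lay below all Fpn-LKO libraries, whereas LT replicate 2 lay inside their range. The log2 fold change of 0.45 (SE 0.29, 95% interval −0.24 to 1.13) did not pass the test (adjusted p = 0.982). It was 0.81 without LT replicate 2, 0.29 without LT replicate 1 and 0.29 without Fpn-LKO replicate 1. The neighbouring gene Mapkapk3, whose end lies 6781 bases before the start of Cish, was named after its values were seen and was measured at 0.382, 0.577 and 0.773 CPM in LT and at 2.54, 2.03 and 2.26 CPM in Fpn-LKO. It did not overlap between the groups, with a log2 fold change of 1.98 and an adjusted p-value of 0.411.

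Socs2 (NCBI gene 216233, chromosome 10, 95383903 to 95417321, minus strand), the inhibitor whose loss makes mice grow large, was measured at 26.7, 10.2 and 63.6 CPM in LT and at 11.1, 13.8 and 64.8 CPM in Fpn-LKO. Replicate 3 of each group stood far above the others, so that the highest library was 6.22 times the lowest in LT and 5.82 times in Fpn-LKO. The log2 fold change of −0.16 had an SE of 0.81 (95% interval −2.05 to 1.73, adjusted p = 0.995), and it was 0.70 without LT replicate 3 and −1.42 without Fpn-LKO replicate 3. The SD of Socs2 within the groups, 1.35 on the log2 scale, was higher than that of 99.2% of the 8998 genes with a mean of at least 5 CPM.

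Igf1 (NCBI gene 16000, chromosome 10, 87858265 to 87937047, plus strand) was measured at 326, 312 and 332 CPM in LT and at 291, 423 and 384 CPM in Fpn-LKO. The LT values were close together, with a highest library of 1.06 times the lowest, and the Fpn-LKO values lay on both sides of them. On means of 323 ± 9.91 and 366 ± 68.1 CPM (SD, n = 3 each), the log2 fold change was 0.18 (SE 0.16, 95% interval −0.19 to 0.55, adjusted p = 0.985). It was 0.32 without Fpn-LKO replicate 1 and 0.061 without Fpn-LKO replicate 2. With all 6 libraries and on the linear scale, the interval ran from 0.875 to 1.46 times the LT level.

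Igfals (NCBI gene 16005, chromosome 17, 24877844 to 24882011, plus strand) encodes the acid-labile subunit, which holds IGF1 in a long-lived complex in blood. It was measured at 122, 105 and 190 CPM in LT and at 137, 166 and 126 CPM in Fpn-LKO, with all Fpn-LKO libraries inside the LT range. The log2 fold change was 0.043 (SE 0.23, 95% interval −0.50 to 0.58, adjusted p = 0.995). Igfbp2 (NCBI gene 16008, chromosome 1, 72824480 to 72852474, plus strand), a binding protein of IGFs that growth hormone is known to lower, was measured at 525, 548 and 251 CPM in LT and at 247, 222 and 400 CPM in Fpn-LKO. Replicates 1 and 2 of LT were the highest libraries, but LT replicate 3 lay among the Fpn-LKO values. The log2 fold change of −0.61 (SE 0.34, 95% interval −1.40 to 0.18) did not pass the test (adjusted p = 0.982). Leaving out each library in turn gave −0.91 to −0.42.

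**Figure D2:**
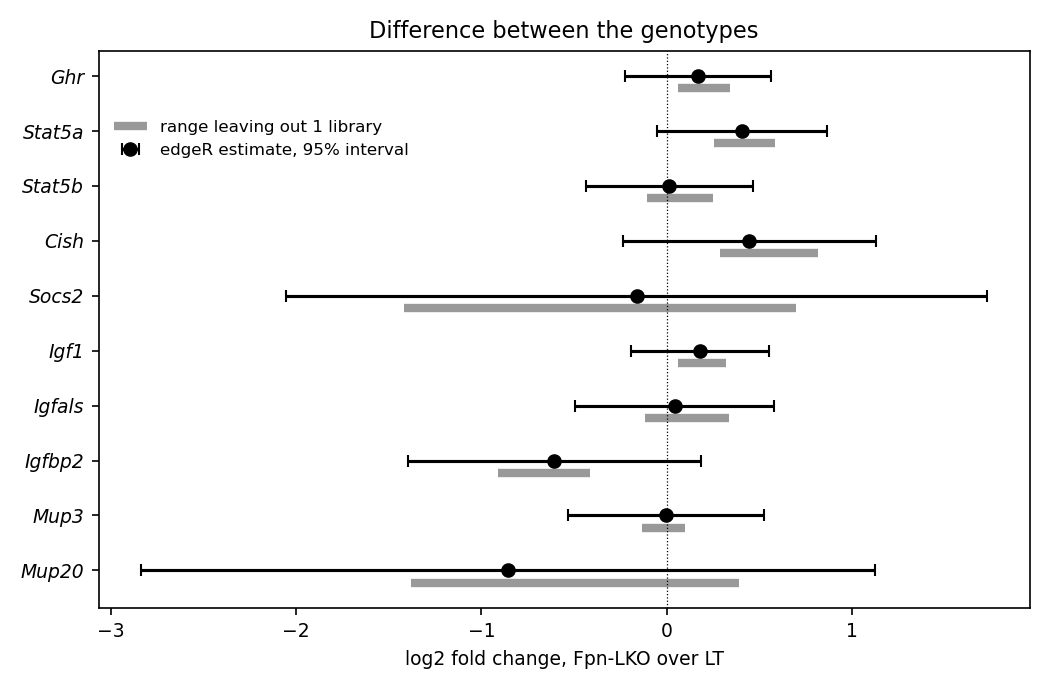
Log2 fold change of each axis gene, Fpn-LKO over LT (x axis), from edgeR's quasi-likelihood fit (points) with its 95% interval (black bars). Grey bars span the estimates when each of the 6 libraries was left out in turn, and all 10 black intervals include 0.

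Mup3 (NCBI gene 17842, chromosome 4, 62083476 to 62087317, minus strand) and Mup20 (NCBI gene 381530, chromosome 4, 62011337 to 62054143, minus strand), which encodes the male pheromone darcin, belong to the Mup gene cluster, whose copies are so alike that reads can be shared between them. Of 22 Mup genes, 16 had a nearest other copy with a coding sequence at least 99% identical (99.3% to 99.8%). Mup3 and Mup20 were among the 6 more distinct ones, with Mup21 the nearest to Mup3 at 94.7% and Mup5 the nearest to Mup20 at 91.5%. A stretch of the coding sequence in the GENCODE transcripts of GRCm38 shows how far they differ from Mup7, which stands here for the alike copies. Capitals mark bases that differ from Mup7, 18 in Mup3 and 7 in Mup20, and bases were counted from 1 at the A of the start codon.
Mup7, bases 241 to 330: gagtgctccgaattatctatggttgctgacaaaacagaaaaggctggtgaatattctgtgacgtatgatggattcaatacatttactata
Mup3, bases 253 to 342: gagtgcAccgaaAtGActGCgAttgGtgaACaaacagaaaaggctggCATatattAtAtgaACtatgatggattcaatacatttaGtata
Mup20, bases 244 to 333: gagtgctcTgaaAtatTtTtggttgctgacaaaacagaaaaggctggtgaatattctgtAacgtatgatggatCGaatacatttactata
Values of the 16 alike copies are uncertain one by one, and their sum is the safer measure.

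Mup3 was measured at 7214, 5907 and 7980 CPM in LT and at 6375, 8234 and 6428 CPM in Fpn-LKO. The groups covered nearly the same range, with means of 7034 ± 1048 and 7012 ± 1058 CPM (SD, n = 3 each) and a log2 fold change of −0.0044 (SE 0.23, 95% interval −0.54 to 0.53, adjusted p = 0.998). Mup20 was measured at 3047, 456 and 8938 CPM in LT and at 1525, 2823 and 2521 CPM in Fpn-LKO. The LT libraries held both the lowest and the highest value, 19.6 times apart, and enclosed the Fpn-LKO libraries, which were 1.85 times apart. The log2 fold change of −0.86 had an SE of 0.85 (95% interval −2.84 to 1.12, adjusted p = 0.991), and it was −1.38 without LT replicate 2 and 0.39 without LT replicate 3. The SD of Mup20 within the groups, 1.57 on the log2 scale, was higher than that of 99.5% of the 8998 genes.

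The other 20 Mup genes in the table followed neither member. In LT they summed to 22723, 120717 and 110636 CPM, against 42651, 118456 and 137004 CPM in Fpn-LKO, so that replicate 1 of each group stood well below the rest. Copies that can share reads are not independent observations, so the counts of genes that follow add little to this sum. Of the 19 with a mean of at least 5 CPM, 18 were lowest in LT replicate 1 and 18 were the second lowest in Fpn-LKO replicate 1, Mup6 being the exception in both. Mup3, by contrast, varied by 1.39 times over all 6 libraries, and Mup20 was lowest in LT replicate 2, where the summed level was high. As a share of all Mup reads, Mup20 made up 9.24%, 0.359% and 7.01% in LT and 3.02%, 2.18% and 1.73% in Fpn-LKO, while Mup3 made up 21.9%, 4.65% and 6.26% in LT and 12.6%, 6.36% and 4.40% in Fpn-LKO. All 22 Mup genes together took 3.45% to 14.2% of a library's reads. Between the genotypes, 0 of the 21 Mup genes tested passed the threshold, beside 0.0232% of all genes tested. An unadjusted p under 0.05 was reached by 0 of the 21, beside 4.8%. The median log2 fold change of these genes was 0.23, and the summed counts gave 0.18.

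**Figure D3:**
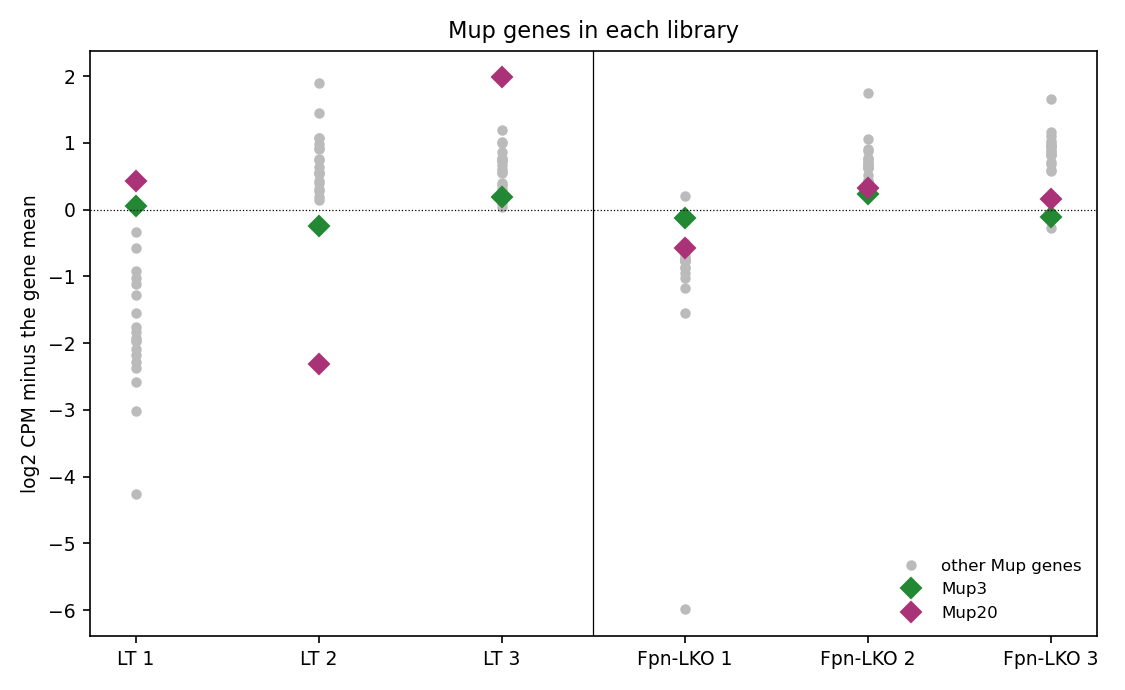
Log2 CPM minus the gene's mean over the 6 libraries (y axis) for Mup genes with a mean of at least 5 CPM, by library (x axis). Grey points are the 19 other Mup genes, green Mup3 and purple Mup20. The grey points lie low in replicate 1 of both groups, apart from Mup5 at 0.20 in Fpn-LKO replicate 1. The lowest is Mup6, which had 0 reads in Fpn-LKO replicate 1, while Mup3 stays near 0 and Mup20 swings between LT replicates 2 and 3.

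Set in order of level per length, as TPM, which scales reads by transcript length and library, over the 6 libraries, the members spanned from urinary proteins to signalling proteins. Mup3 was the highest at 9937 ± 1932 TPM (SD, n = 6), followed by Mup20 at 4617 ± 3773, Igfbp2 at 362 ± 151, Ghr at 203 ± 31.9, Igfals at 85.9 ± 19.6, Igf1 at 65.0 ± 14.9, Socs2 at 17.8 ± 14.1, Stat5b at 8.93 ± 2.48, Stat5a at 3.48 ± 1.04 and Cish at 2.23 ± 0.656 TPM. Not all neighbours could be told apart. The ranges over libraries overlapped for Mup3 and Mup20, Igfbp2 and Ghr, Igfals and Igf1, Socs2 and Stat5b, and Stat5a and Cish, although Igfals exceeded Igf1 and Stat5a exceeded Cish in 6 of 6 libraries. Socs2 exceeded Stat5b in 3 of 6 libraries. Stat5b exceeded Stat5a in 6 of 6 libraries with no overlap of ranges.

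**Figure D4:**
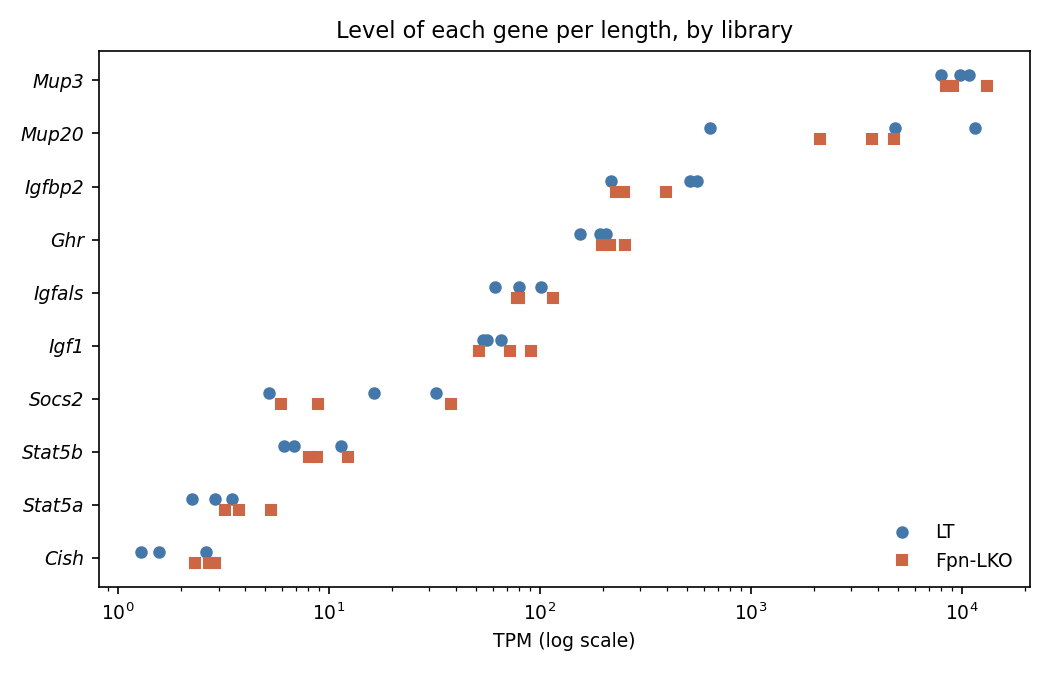
TPM (x axis, log scale) of the 10 axis genes in LT (blue circles) and Fpn-LKO (orange squares) livers, each point 1 library, ordered by the mean. Mup3 reached 13264 TPM and Cish at most 2.90 TPM, and Mup20 alone spread over more than a factor of 10.

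Of the wider set of growth hormone receptor signalling genes, 26 of 27 listed were tested, and 0 passed, beside 0.0232% of all genes tested. Of these 26, 0 had an unadjusted p under 0.05, beside 4.8%, and 2 did not overlap between the groups, beside 10.6%. The median log2 fold change was 0.15 with 21 positive estimates, beside 8529 positive estimates among all 17274 genes tested. The smallest unadjusted p-value of that list was that of Stat5a, described above. Of 20 genes of IGF ligands, receptors, binding proteins and their partners, 14 were tested and 0 passed, beside 0.0232% of all genes tested. Igfbp3, the main carrier of IGF1 in blood, was the single gene of that list with an unadjusted p under 0.05 (7.14%, beside 4.8%). It was measured at 28.7, 9.26 and 16.6 CPM in LT and at 10.6, 6.53 and 11.2 CPM in Fpn-LKO. The groups overlapped, and the log2 fold change was −0.95 (SE 0.40, unadjusted p = 0.0474, adjusted p = 0.982). It was −0.45 without LT replicate 1. Liver Igfbp3 RNA comes largely from cells other than hepatocytes, and fewer cells of a type and less RNA per cell cannot be told apart in whole liver. The 10 stellate and endothelial markers summed to 482 to 513 CPM in LT and 447 to 487 CPM in Fpn-LKO. Gene by gene they were split, with 6 positive and 4 negative estimates and a median log2 fold change of 0.082. The part of these markers in the Igfbp3 values was not tested.

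The genes whose libraries followed Igf1 most closely, by the root-mean-square difference of log2 CPM centred on each gene over the 6 libraries, were C1qbp at 0.035, Serpina1b at 0.048 and Kctd10 at 0.050, of 8997 genes ranked. With 6 libraries such closeness is a description. C1qbp was measured at 13.0, 12.0 and 13.5 CPM in LT and at 11.6, 16.02 and 15.04 CPM in Fpn-LKO, with the same order of libraries as Igf1.

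The known targets of the hormone's sex-specific pattern were listed by their usual bias in mouse liver. Among 25 of 27 male-biased targets tested, 0 passed the threshold, 3 had an unadjusted p under 0.05 with higher and 1 with lower levels in the libraries labelled Fpn-LKO (4 of 25, 16%, beside 4.8% of all genes tested), and the median log2 fold change was −0.15. Among 33 of 43 female-biased targets tested, 0 passed, 2 were higher and 1 lower at that level (3 of 33, 9.09%, beside the same 4.8%), and the median was −0.12. Groups did not overlap for 1 of the male-biased and 3 of the female-biased genes tested, beside 10.6% of all genes. In neither list did the estimates point one way, with 11 positive and 14 negative for male-biased and 15 positive and 18 negative for female-biased targets.

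The male-biased genes at that unadjusted level were Cyp4a12a, Elovl3, Alas2 and Slco1a1. Cyp4a12a, a fatty acid hydroxylase, was measured at 82.4, 170 and 121 CPM in LT and at 155, 242 and 273 CPM in Fpn-LKO (log2 fold change 0.84, adjusted p = 0.982). Elovl3, a fatty acid elongase, was measured at 34.3, 41.4 and 22.4 CPM in LT and at 57.9, 94.3 and 32.7 CPM in Fpn-LKO (log2 fold change 0.91, and 0.47 without Fpn-LKO replicate 2). Both overlapped between the groups, as did Alas2, the haem synthesis enzyme of red cell precursors (log2 fold change 0.47, and 0.71 without LT replicate 3), which is also 1 of the 5 red blood cell markers tested. Those markers summed to 351 to 943 CPM in LT and 474 to 1244 CPM in Fpn-LKO, and their part in the Alas2 values was not tested. Slco1a1, an organic anion transporter, was measured at 976, 1072 and 871 CPM in LT and at 494, 780 and 727 CPM in Fpn-LKO and did not overlap (log2 fold change −0.54, adjusted p = 0.982).

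The female-biased genes at that level included Ntrk2 and Cyp2c69. Ntrk2, a neurotrophin receptor, was measured at 1.25, 0.647 and 6.07 CPM in LT and at 6.12, 15.8 and 12.1 CPM in Fpn-LKO and did not overlap, although LT replicate 3 came close to Fpn-LKO replicate 1 (log2 fold change 2.101, adjusted p = 0.982, and 3.57 without LT replicate 3). Cyp2c69, a P450 enzyme, had a log2 fold change of −0.34 and did not overlap between the groups either. Of the 21 transcription factors of sex-biased liver expression, all tested, 0 passed, beside 0.0232% of all genes tested. An unadjusted p under 0.05 was reached by 2 (9.52%, beside 4.8% of all genes), and 2 did not overlap, beside 10.6% of all genes. The estimates of the list were positive for 8 and negative for 13. Hnf4a, the master regulator of hepatocyte genes, is also 1 of the 10 hepatocyte markers. It was measured at 239, 250 and 265 CPM in LT and at 310, 344 and 286 CPM in Fpn-LKO without overlap (log2 fold change 0.32, adjusted p = 0.982). Foxa1, a pioneer factor, had a log2 fold change of 0.60 (adjusted p = 0.982) and of 0.33 without Fpn-LKO replicate 2.

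The target lists also differed between mice of the same genotype. The median of the male-biased targets, in log2 CPM relative to each gene's mean over the 6 libraries, was −0.50, 0.076 and 0.56 in LT, against −0.29, 0.24 and 0.23 in Fpn-LKO (replicates 1 to 3). The female-biased median was 0.55, −0.023 and −0.62 in LT and 0.44, −0.011 and −0.32 in Fpn-LKO. The medians of the lists thus had opposite signs in all 6 libraries, although the female-biased one was only −0.023 and −0.011 in replicate 2. The male-biased median was the lower in replicate 1 of both groups and the higher in replicates 2 and 3. In LT replicate 1 only 5 of 25 male-biased but 28 of 33 female-biased genes lay above their own mean, and in LT replicate 3 the counts were 19 of 25 and 7 of 33. Fpn-LKO replicate 1 had 6 of 25 and 24 of 33, and Fpn-LKO replicate 3 had 21 of 25 and 10 of 33.

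Single genes chosen after their values were seen show the size of this spread. Cyp7b1, a male-biased enzyme of oxysterol metabolism, was measured at 337, 786 and 1655 CPM in LT and at 301, 915 and 873 CPM in Fpn-LKO. Cyp2c39, a female-biased P450 enzyme, was measured at 521, 130 and 38.3 CPM in LT and at 369, 45.7 and 121 CPM in Fpn-LKO. Replicate 1 of each group was thus the lowest for Cyp7b1 and the highest for Cyp2c39. Several female-biased genes with that order, such as Acot3 and Cyp4a14, are also known targets of the fatty acid receptor PPARα, and the part of that receptor was not tested. Of the 10 axis members, Stat5b alone was lowest in replicate 1 of both groups, and 0 were highest there in both. Ghr and Igf1 varied by at most 1.46 times over the 6 libraries, Socs2 was highest in replicate 3 of each group, and Igfbp2 was highest in LT replicates 1 and 2. The 5 RNAs without a poly(A) tail took 7.65%, 7.83% and 8.76% of reads in LT and 10.2%, 3.29% and 4.49% in Fpn-LKO, and their part in these levels was not tested.

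**Figure D5:**
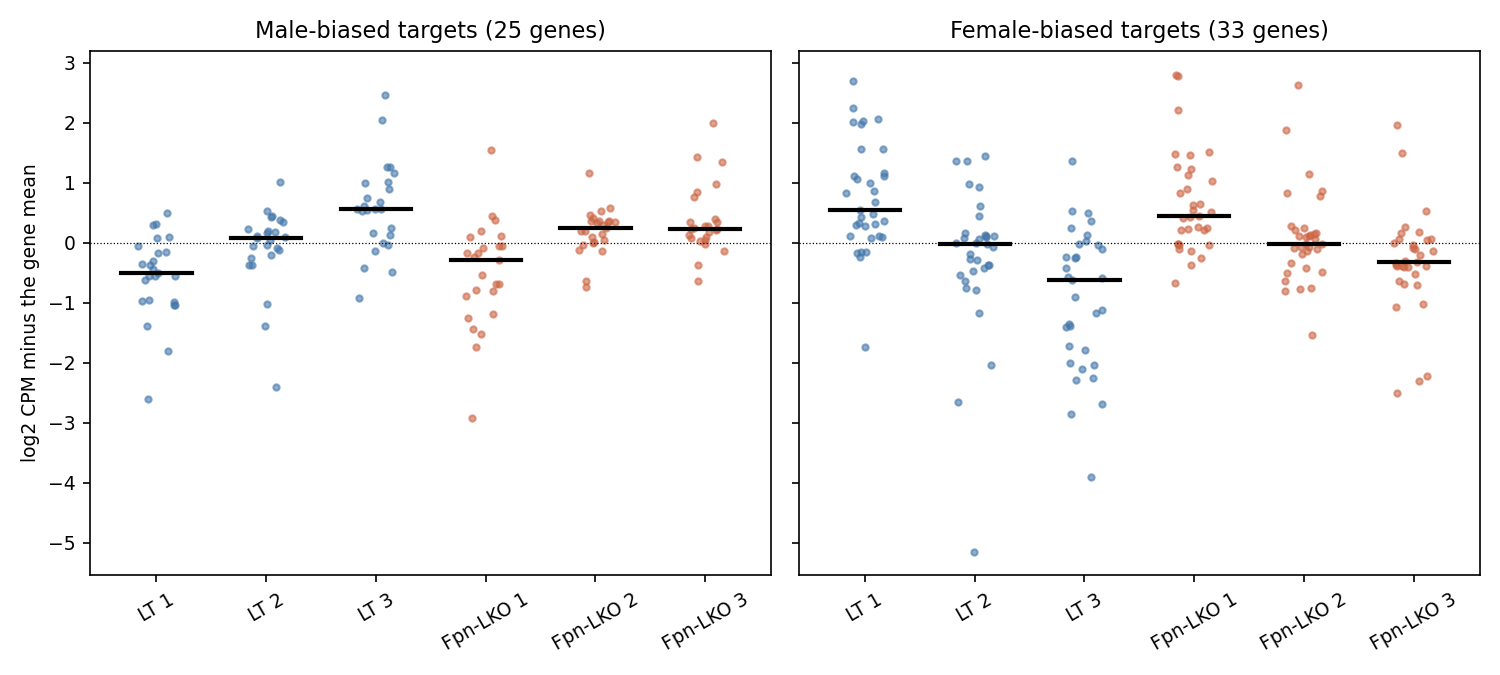
Log2 CPM minus the gene's mean over the 6 libraries (y axis) for 25 male-biased (left) and 33 female-biased (right) targets of growth hormone signalling, by library (x axis). Points are genes, with random sideways shifts, in LT (blue) and Fpn-LKO (orange), and black bars are medians. The medians of replicate 1 are low on the left and high on the right in both groups.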

How the data were processed

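Liver RNA of 6 mice, 3 per genotype, was sequenced. The labels give a stranded mRNA kit, whereas the methods give total RNA with rRNA removal. According to the submitters' processing notes, bcl2fastq 2.20.0, FastQC 0.11.7, HISAT2 2.1.0, Bowtie2 2.3.4.1 and StringTie 2.1.3b were used with mm10. The authors deposited read counts per gene without normalization, together with FPKM and TPM, which they scaled by transcript length and library size. FPKM was used only to check the deposited counts. The largest disagreement of a library between counts and FPKM, on the log2 scale, was 0.21 for Stat5b and 0.094 for Socs2. It was at most 0.017 for the other members. The strand setting of the counting is not given in the sources used here, so genes that overlap a member on the annotation (Gm41254 with Ghr, Igf1os with Igf1, Gm41549 with Igfals, Gm33230 with Socs2, Mup-ps21 with Mup20) may share reads with it.

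Counts were tested in R 4.3.3 with edgeR 4.0.16 (quasi-likelihood test, TMM scaling, Benjamini-Hochberg adjustment, threshold 0.05) over the 17274 genes with 0 reads in at most 1 library, a filter that all 10 members passed. SE was derived from the F statistic. CPM is TMM-scaled, and levels between genes were compared in TPM. The study's test, exactTest, was an alternative, as were DESeq2 1.42.0 (Wald test without independent filtering), limma 3.58.1 on log2(TPM + 1) or log2(TPM + 0.1) at a mean TPM of at least 1, RLE scaling, other filters, the replicate number as a block, and leaving out each library. A prior count of 2 was used for log2 CPM. The tests were tried on simulated counts drawn with the spread estimated from these data, so that trial checks the code only. Exact two-sided permutation tests of single members cannot fall below p = 0.1 with 3 against 3, and gave 0.2 to 1. P-values weigh the genotype difference against the spread between mice. The common biological coefficient of variation, 1 value for all genes tested, was 0.275.

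The members and gene lists were chosen with earlier results of these data known. Named genes were all members, Slc40a1, up to 5 genes of each list with an unadjusted p under 0.05 (the 2 smallest p where fewer), the 3 genes most like Igf1, and others said to be chosen after their values were seen. Some genes that this rule names are not reported here. Positions come from RefSeq (GRCm38.p6). Other cell type markers not given in the report, as summed CPM, were 299 to 397 in LT and 248 to 541 in Fpn-LKO for Kupffer cells, 14.0 to 85.3 and 22.3 to 31.6 for cholangiocytes, 2.33 to 6.74 and 1.93 to 2.96 for lymphocytes and neutrophils, 11.1 to 28.5 and 12.6 to 16.5 for pancreas, and 5.41 to 14.6 and 8.20 to 20.4 for adipocytes. Sequences were read with Biopython 1.88 in Python 3.11.15.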

Additional observations from a re-analysis of the deposited data

How the results depend on the processing

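Of the 10 axis members, 0 passed the threshold under every alternative run. Over all genes, 4 passed, and the count was 0 with the replicate number as a block, 72 with DESeq2, 63 with exactTest, 7 with limma on log2(TPM + 0.1) and 0 to 6 when 1 library was left out. Whether the replicate numbers pair the mice cannot be settled from these values. Over all genes tested, same-numbered libraries deviated together with correlations of 0.129, −0.0095 and 0.0448. Of the LT libraries, 1 of 3 correlated best with its own number. With the block, the SE fell for Ghr, Igf1, Stat5a, Stat5b and Socs2 (0.81 to 0.33 for Socs2). It rose for Igfals, Igfbp2, Cish, Mup3 and Mup20 (0.85 to 0.96 for Mup20). The block put 1 of the 10 members, Stat5a, at an unadjusted p under 0.05, beside 850 of all 17274 genes tested. Leaving out LT replicate 2 put 3 members there (Cish, Stat5a and Mup20), beside 648 of all genes. Without LT replicate 3 there were 2 (Ghr and Igfbp2), beside 977. Without Fpn-LKO replicate 1 there was 1 (Igf1), beside 832, and without Fpn-LKO replicate 3 there was 1 (Igfbp2), beside 836. The adjusted p of these members was at least 0.772.

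Estimates of Ghr, Igf1, Igfbp2, Cish and Stat5a kept their direction under 15 alternatives each. Leaving out 1 library turned the log2 fold change of Igfals (−0.12 to 0.34), Socs2 (−1.42 to 0.70), Stat5b (−0.11 to 0.25), Mup3 (−0.14 to 0.097) and Mup20 (−1.38 to 0.39). Mup3 also turned to 0.0012 with RLE scaling, 0.0012 with DESeq2 and 0.088 with both limma fits, and Mup20 to 0.028 with both limma fits. Stat5b, at 0.014 in the main fit, was at 0.25 and 0.28 with limma on log2(TPM + 1) and log2(TPM + 0.1). All Mup counts summed gave 0.18, a value that is set mostly by the other copies and is no estimate of Mup3 or Mup20. The male-biased minus the female-biased median kept its sign in all 6 libraries under RLE scaling and both TPM scalings, an alternative chosen after seeing the data, as was leaving out the 5 RNAs without a poly(A) tail, which gave 4 genes. The member with the fewest reads, Cish, had at least 144 in every library and Socs2 at least 443, and the part of depth in the width of the intervals was not tested.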
